A study of Mus musculus with 16 samples.

Results

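The thick ascending limb and the distal convoluted tubule are neighbouring nephron segments that reabsorb salt without water, and 9 of their marker and transport genes were followed here in obstructed mouse kidneys. They are UMOD, SLC12A1, KCNJ1 and CASR of the thick limb, SLC12A3, TRPM6 and PVALB of the distal convoluted tubule, and CALB1 and SLC8A1, which the distal convoluted tubule shares with the connecting tubule. They were chosen by symbol, with earlier results of these data known. All 9 were found among the 18132 genes of the deposited table, 1 row each. Symbols are written in capitals, as in that table.

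RNA from homogenates of 16 kidneys was hybridized to Illumina MouseRef-8 v2 BeadChips, arrays on which the brightness of a bead type follows the amount of its transcript, with 1 array per kidney. The mice were wild type (WT) C57/BL6 or lacked the cytokine gene IL33 (IL-33-deficient, backcrossed to C57BL/6J BomTac), and the study's methods give an age of 8 weeks. In unilateral ureteral obstruction (UUO) 1 ureter was clipped, and the kidney was taken 24 h later. Obstructed kidneys came from 7 WT and 5 IL-33-deficient mice and control kidneys from 2 of each genotype, and the labels do not say whether a control was sham-operated. By the labels set 1 holds the obstructed WT kidneys 3818, 3819 and 3820 and IL-33-deficient kidneys 3821 and 3822, and set 2 the other 7 obstructed kidneys, while no set is given for the controls. Set and treatment can therefore not be separated in a comparison with the controls. Kidneys are named by the number in their label, and nothing in the labels says whether they came from separate litters or days. All values are log2 intensities after quantile normalization, on which 1 unit is a doubling. On this scale the lowest value of an array was 6.59, its median 7.05 and its highest 14.49, so a gene near 7 was close to background and its fold change is understated. Levels of different genes are not comparable, since each bead type has its own brightness.

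UMOD encodes uromodulin, the most abundant protein of normal urine, which thick limb cells secrete into the lumen. SLC12A1 (NKCC2) brings sodium, potassium and chloride into the thick limb cell, KCNJ1 (ROMK) returns the potassium to the lumen, and the calcium-sensing receptor CASR adjusts this transport to blood calcium. In the distal convoluted tubule SLC12A3 (NCC) is the thiazide-sensitive sodium chloride cotransporter, TRPM6 takes up magnesium, and parvalbumin (PVALB) and calbindin (CALB1) buffer calcium in the cytosol, while the exchanger SLC8A1 (NCX1) carries it out at the basolateral side.

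Of the 9 genes, 8 had at least 1 promoter in the RefSeq table of mouse build GRCm38.p6. The 250 bases before the annotated start are shown for UMOD, SLC12A1 and SLC12A3, which are the genes most used to name the 2 segments. Capitals mark a match to a searched motif. UMOD lies at chr7:119479263-119479512 on the minus strand, SLC12A1 at chr2:125152350-125152599 on the plus strand and SLC12A3 at chr8:94328958-94329207 on the plus strand, each written 5′ to 3′ along the gene.
UMOD: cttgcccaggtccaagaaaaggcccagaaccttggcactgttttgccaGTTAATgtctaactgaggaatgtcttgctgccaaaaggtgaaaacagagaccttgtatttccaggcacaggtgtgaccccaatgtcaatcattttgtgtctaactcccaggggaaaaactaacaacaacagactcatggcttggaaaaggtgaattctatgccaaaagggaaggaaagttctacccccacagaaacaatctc
SLC12A1: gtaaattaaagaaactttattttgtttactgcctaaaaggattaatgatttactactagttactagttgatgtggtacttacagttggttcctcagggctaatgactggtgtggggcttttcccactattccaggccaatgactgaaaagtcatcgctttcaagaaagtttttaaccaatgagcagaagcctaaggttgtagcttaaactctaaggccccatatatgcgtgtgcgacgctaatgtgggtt
SLC12A3: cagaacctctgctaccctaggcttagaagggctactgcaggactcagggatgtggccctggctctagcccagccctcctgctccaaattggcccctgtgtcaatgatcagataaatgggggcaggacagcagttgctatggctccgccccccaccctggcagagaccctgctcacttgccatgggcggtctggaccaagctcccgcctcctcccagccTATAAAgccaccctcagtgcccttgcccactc
4 motifs were searched on both strands. The HNF1 half-site GTTAAT was found in the UMOD promoter, beginning 202 bases before the start, and in 6.43% of all 32851 promoters. The TATA box TATAAA was found in the SLC12A3 promoter, 32 bases before the start, and in 12.4% of all. The estrogen-related receptor element AAGGTCA (4.08% of all) and the AP-1 site TGANTCA (6.75% of all) were in none of the 9 entries, of which PVALB has 2. A match describes the letters in this window and is not a measured binding site.

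IL33 itself followed the labels. It was between 6.80 and 7.02 in the 7 IL-33-deficient kidneys, 7.62 and 8.02 in the WT controls and between 8.39 and 9.57 in the WT UUO kidneys. Markers of the kidney were bright in the controls, where the mean of 7 proximal tubule markers was between 10.78 and 10.98. Obstruction raised the injury genes. HAVCR1 (KIM-1), which injured proximal tubule cells make, was between 7.07 and 7.37 in the 4 controls and between 10.42 and 13.95 in the 12 UUO kidneys. LCN2 (NGAL), a secreted iron carrier protein of injured tubules, was between 7.44 and 7.64 in the controls and between 11.81 and 13.70 after UUO. WT kidneys 3820 and 3818 of set 1 stood apart, with the lowest HAVCR1 (10.42 and 12.84) and LCN2 (11.81 and 12.79) of the UUO kidneys. The WT responses they moved most are given with and without both, an alternative chosen after the values were seen. Both kidneys also had the most SLC12A1 and UMOD after UUO, so leaving them out enlarges those falls and adds no support for them.

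The first question was how these genes answered 24 h of obstruction in each genotype. In WT kidneys 6 of the 9 fell (SLC12A1, KCNJ1, SLC12A3, TRPM6, PVALB and SLC8A1), none rose, and UMOD, CASR and CALB1 did not pass the test, at an adjusted p under 0.05 in limma. Of all 18132 genes 8.22% were lower and 6.97% higher by the same rule. In IL-33-deficient kidneys 4 of the 9 fell (SLC12A1, KCNJ1, PVALB and SLC8A1) and none rose, against 11.2% lower and 10.6% higher among all genes. Of the 9 genes 8 were brighter than the median gene, and the share called among brighter genes alone was not counted. The median log2 difference of the 9 genes was -0.63 for WT and -0.37 for IL-33-deficient mice, with a median over all genes of -7.59e-04 and -5.70e-04. SLC12A1 and PVALB ranked as the 6th and 7th lowest of all 18132 differences in WT kidneys, and as the 13th and 10th lowest in IL-33-deficient kidneys. A homogenate does not separate fewer cells of a segment from less RNA in each cell.

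**Figure D1:**
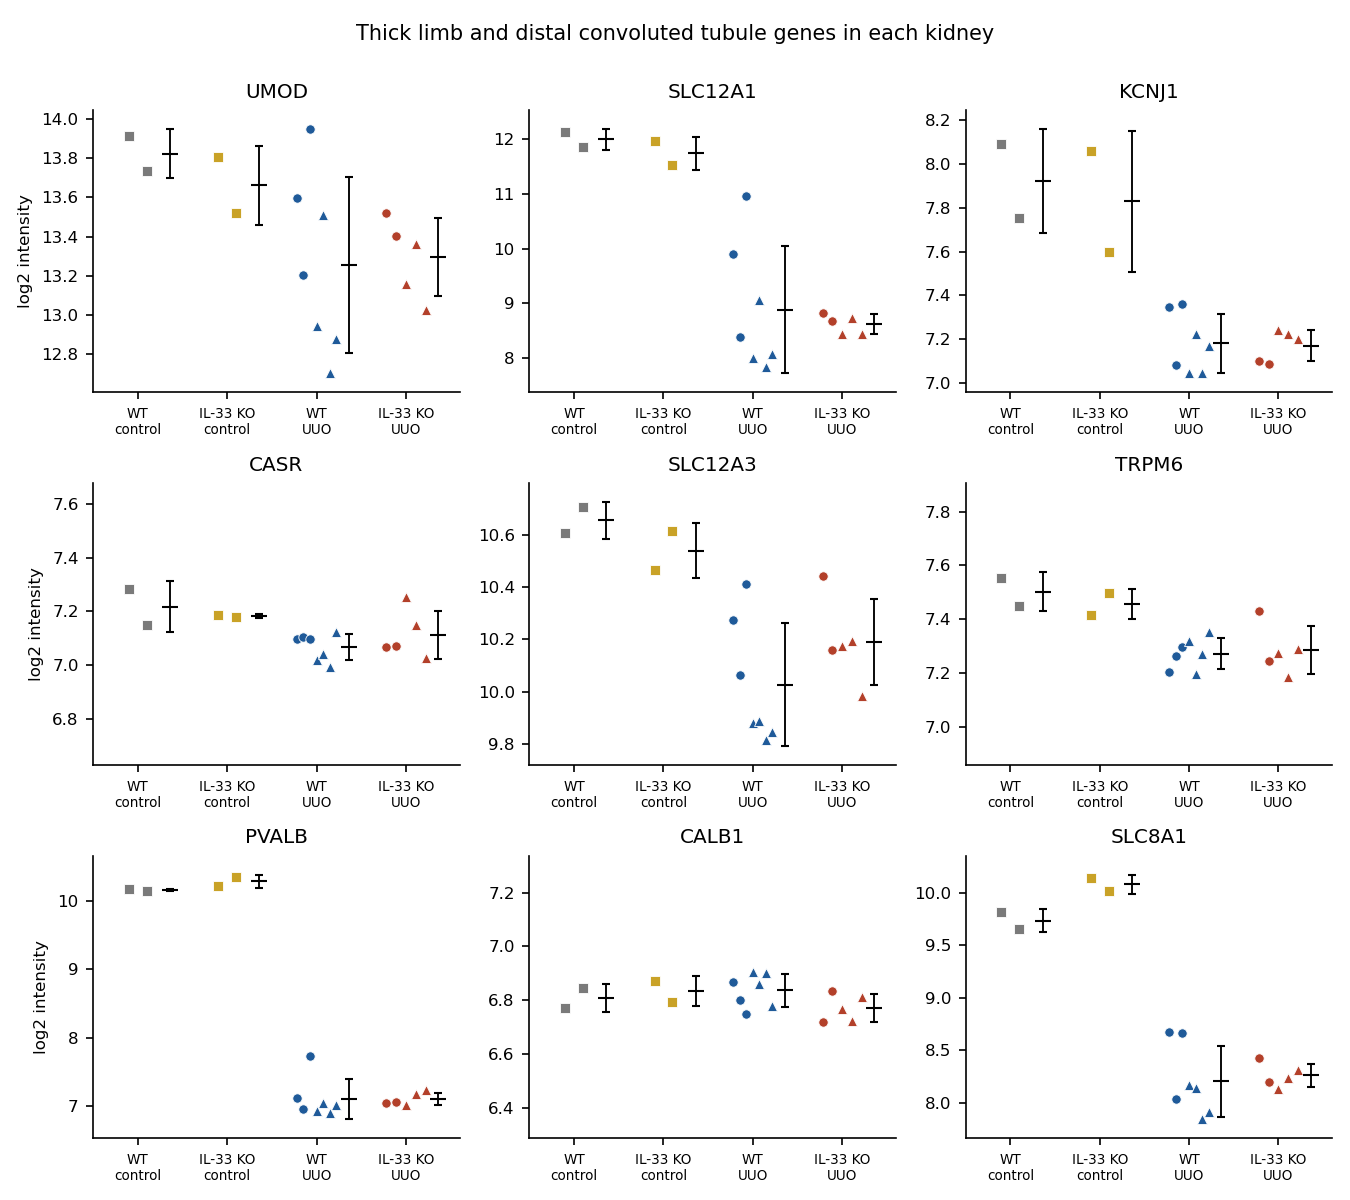
Log2 intensity (vertical axis) of each of the 9 genes in the 16 kidneys, by group, with a separate range for every gene. Squares are controls, circles UUO kidneys of set 1 and triangles UUO kidneys of set 2, and the bar beside each group is the mean and SD. SLC12A1, PVALB and SLC8A1 lay apart from the controls in every UUO kidney, UMOD overlapped them, and CALB1 stayed between 6.72 and 6.90.

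SLC12A1 carried the widest change among the thick limb genes. It was 12.14 and 11.87 in the WT controls, and the IL-33-deficient controls had 11.96 and 11.53. After UUO the lowest, median and highest WT kidneys measured 7.83, 8.38 and 10.97, and the 5 IL-33-deficient kidneys measured 8.82, 8.68, 8.43, 8.72 and 8.44. No obstructed kidney reached the level of a control, but WT kidneys 3820 (10.97) and 3818 (9.90) came closest to it, and the SD was 1.17 in the 7 WT kidneys and 0.18 in the 5 IL-33-deficient kidneys. The difference was -3.12 ± 0.61 (SE) in WT kidneys, 8.69-fold lower (limma, adjusted p = 0.0032), and -3.13 ± 0.64 in IL-33-deficient kidneys, 8.73-fold lower (limma, adjusted p = 0.0022). Each SE pools the spread of all 4 groups, so 0.64 is not the spread of the IL-33-deficient kidneys alone. That SE was 0.25 without WT kidneys 3818 and 3820. Without both the WT difference was -3.74 (limma, adjusted p = 1.10e-07). In set 1 alone it was -2.25 and was not called (limma, adjusted p = 0.14), and in set 2 alone it was -3.77 (limma, adjusted p = 1.47e-06).

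UMOD, a product of the same thick limb cells, was not called in either genotype. It was 13.91 and 13.73 in the WT controls and 13.80 and 13.52 in the IL-33-deficient controls. The lowest, median and highest WT UUO kidneys measured 12.70, 13.20 and 13.95, and the IL-33-deficient UUO kidneys measured 13.52, 13.40, 13.16, 13.36 and 13.03. WT kidney 3820, at 13.95, was above both WT controls, so the groups overlapped. The difference was -0.57 ± 0.25 (SE) in WT kidneys and -0.37 ± 0.26 in IL-33-deficient kidneys, with an adjusted p in limma of 0.16 and 0.40. Without kidneys 3818 and 3820, which had the most UMOD of the UUO kidneys, the WT difference was -0.77 and was called (limma, adjusted p = 0.0053). It was also called in set 2 alone at -0.81 (limma, adjusted p = 0.0059). UMOD was among the brightest genes of the arrays, with 99.6% of genes at or below its mean, and whether its bead type was near saturation was not tested.

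KCNJ1 was low but fell in both genotypes. Its WT controls were at 8.09 and 7.75 and its IL-33-deficient controls at 8.06 and 7.60. After UUO it was between 7.05 and 7.36 in the 7 WT kidneys, with a median of 7.17, and 7.10, 7.09, 7.25, 7.22 and 7.20 in the IL-33-deficient kidneys. All 12 UUO kidneys were below all 4 controls, and they lay near the median of the arrays, where the fold change is compressed. It was 1.67-fold lower in WT kidneys (-0.74 ± 0.12 SE, limma, adjusted p = 8.46e-04) and 1.58-fold lower in IL-33-deficient kidneys (-0.66 ± 0.12 SE, limma, adjusted p = 0.0011). CASR was dim in every group, between 6.99 and 7.28, and its differences of -0.15 and -0.07 were not called (limma, adjusted p = 0.088 and 0.50).

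In the distal convoluted tubule PVALB was the clearest case. It was 10.17 and 10.15 in the WT controls and 10.22 and 10.36 in the IL-33-deficient controls. The lowest, median and highest WT UUO kidneys measured 6.89, 7.01 and 7.74, and the IL-33-deficient UUO kidneys measured 7.03, 7.06, 7.01, 7.17 and 7.23. Every obstructed kidney was therefore far below every control and all but WT kidney 3820 were close to the array median, so the remaining PVALB signal was close to background. The difference was -3.07 ± 0.16 (SE) in WT kidneys, 8.40-fold lower (limma, adjusted p = 1.38e-07), and -3.19 ± 0.17 in IL-33-deficient kidneys, 9.13-fold lower (limma, adjusted p = 1.46e-07). With the lowest intensity subtracted and 50 added the differences were -3.62 and -3.73.

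SLC12A3, the transporter that defines the same segment, had smaller differences than PVALB. It was 10.61 and 10.71 in the WT controls and 10.47 and 10.61 in the IL-33-deficient controls. The lowest, median and highest WT UUO kidneys measured 9.81, 9.89 and 10.41, and the IL-33-deficient UUO kidneys measured 10.44, 10.16, 10.18, 10.19 and 9.98. The UUO kidneys were below the controls of their genotype, narrowly so at IL-33-deficient kidneys 3821 (10.44) and 3813 (10.47). In WT kidneys SLC12A3 fell by 0.63 ± 0.14 (SE), 1.55-fold (limma, adjusted p = 0.0083). In IL-33-deficient kidneys the difference of -0.35 ± 0.15 was not called (limma, adjusted p = 0.12). It was called in set 2 alone at -0.43 (limma, adjusted p = 6.65e-04) and without WT kidneys 3818 and 3820 (limma, adjusted p = 0.014). The latter call came with a smaller pooled SE, 0.10, while the difference stayed at -0.35.

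TRPM6 lay between 7.42 and 7.55 in the 4 controls and between 7.19 and 7.43 after UUO. The groups did not overlap in WT kidneys, and IL-33-deficient kidney 3821 (7.43) was above the lower of its controls (7.42). TRPM6 was 1.17-fold lower in WT kidneys (-0.23 ± 0.06 SE, limma, adjusted p = 0.013), and its difference of -0.17 ± 0.06 in IL-33-deficient kidneys was not called (limma, adjusted p = 0.056). It was called in 4 of 10 alternatives, with an adjusted p in limma between 0.026 and 0.42 over the 10, and without kidney 3821 (limma, adjusted p = 0.010).

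SLC8A1 fell in both genotypes. It was 9.81 and 9.66 in the WT controls and 10.14 and 10.02 in the IL-33-deficient controls. The lowest, median and highest WT UUO kidneys measured 7.84, 8.14 and 8.67, and the IL-33-deficient UUO kidneys measured 8.43, 8.20, 8.13, 8.24 and 8.31. All 12 obstructed kidneys were below all 4 controls, and the nearest were at 8.67 and 9.66. The difference was -1.53 ± 0.18 (SE) in WT kidneys, 2.89-fold lower (limma, adjusted p = 1.32e-04), and -1.82 ± 0.19 in IL-33-deficient kidneys, 3.52-fold lower (limma, adjusted p = 2.15e-05). CALB1 was near background, with 8.23% of genes at or below its mean, and its differences of 0.03 and -0.06 were not called (limma, adjusted p = 0.80 and 0.48). An answer of CALB1 to obstruction could not be seen at this brightness.

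**Figure D2:**
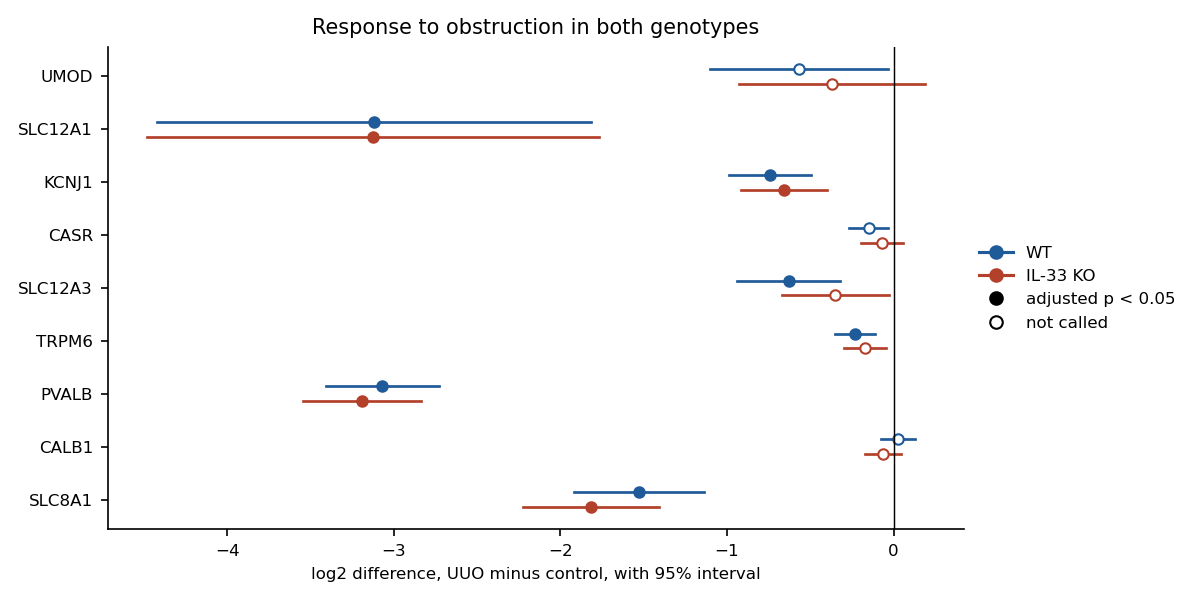
Log2 difference between UUO and control kidneys (horizontal axis) for the 9 genes in WT (blue) and IL-33-deficient (red) kidneys, with 95% intervals from limma and filled points where the adjusted p was under 0.05. SLC12A1 and PVALB lie near -3 in both genotypes, SLC8A1 between -1 and -2, and UMOD, CASR and CALB1 have open points.

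The exact two-sided permutation p for single genes was 0.028 in WT kidneys for SLC12A1, KCNJ1, CASR, SLC12A3, TRPM6, PVALB and SLC8A1, the smallest that 36 splits of 9 kidneys can give, and 0.17 for UMOD. In IL-33-deficient kidneys it was 0.048 for SLC12A1, KCNJ1, SLC12A3, PVALB and SLC8A1, the smallest of 21 splits, and 0.14 for UMOD. With any 1 array left out, KCNJ1, PVALB and SLC8A1 were still called in WT kidneys, and SLC12A1, KCNJ1, PVALB and SLC8A1 in IL-33-deficient kidneys. Without control 3811 the calls of SLC12A1, SLC12A3 and TRPM6 in WT kidneys were lost. Without control 3812 those of SLC12A3 and TRPM6 were lost. Either fit leaves 1 WT control. With the UUO kidneys of set 1 alone the number of genes that fell in WT kidneys was 2, PVALB and SLC8A1. The share of all genes called was not counted in these settings. Without kidneys 3818 and 3820 the number was 7, where 11.6% of all genes were lower. In IL-33-deficient kidneys the number was between 4 and 6 over the alternatives, so the counts of 6 and 4 do not show a difference between the genotypes.

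The 3 obstructed kidneys with the most SLC12A1 were also those with the least HAVCR1, an order that the other kidneys did not follow. WT kidney 3820 had the highest SLC12A1 (10.97), UMOD (13.95) and PVALB (7.74) of the 12 obstructed kidneys and the lowest HAVCR1 (10.42). WT kidney 3818 came second for SLC12A1 (9.90) and UMOD (13.60), and WT kidney 3893 of set 2 followed for SLC12A1 (9.05) and for the lowest HAVCR1 (13.12). In the other 4 WT kidneys the order was the opposite, with SLC12A1 at 8.38, 8.06, 7.99 and 7.83 and HAVCR1 at 13.95, 13.68, 13.54 and 13.50 in kidneys 3819, 3895, 3892 and 3894. In the IL-33-deficient kidneys both genes varied little, with SLC12A1 between 8.43 and 8.82 and HAVCR1 between 13.61 and 13.87, and kidney 3821 had the most of both. Whether kidneys 3818 and 3820 were obstructed to the same degree as the others was not tested.

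**Figure D3:**
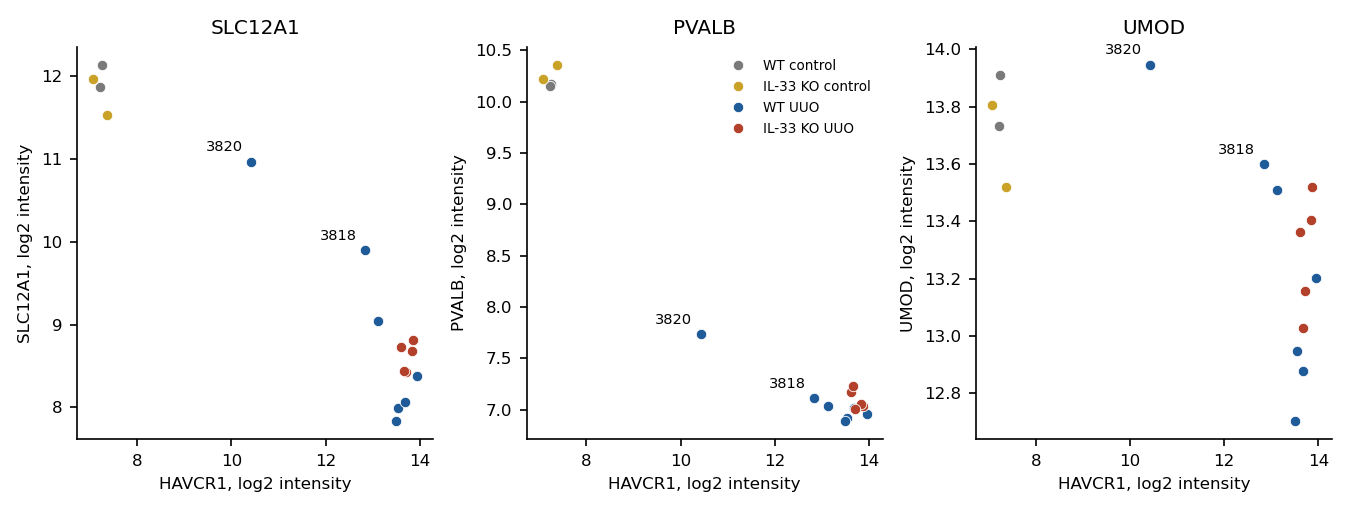
Log2 intensity of SLC12A1, PVALB and UMOD (vertical axes) against that of the injury gene HAVCR1 (horizontal axes), 1 point per kidney and coloured by group. The controls lie at the left, WT kidney 3820 lies between controls and the other UUO kidneys for SLC12A1 and PVALB, and for UMOD it is above all controls.

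The genes that work with these transporters were examined as a list of 34, of which 29 were measured. In WT kidneys 14 of the 29 fell and none rose, and in IL-33-deficient kidneys 13 fell and 1 rose, with 11 lower in both. Among all genes 8.22% were lower and 6.97% higher in the former, and 11.2% and 10.6% in the latter. Of the 29 genes 22 were brighter than the median gene, and these shares are not limited to brighter genes. The median difference of the 29 was -0.32 for WT and -0.23 for IL-33-deficient mice, beside -7.59e-04 and -5.70e-04 over all genes. Without kidneys 3818 and 3820 16 fell and 1 rose in WT kidneys, where 11.6% of all genes were lower and 11.1% higher. EGF, the epidermal growth factor precursor made by thick limb and distal convoluted tubule cells and a stimulus of TRPM6, had the lowest difference of all 18132 genes in WT kidneys. It was 12.56 and 12.05 in the WT controls and 12.63 and 11.98 in the IL-33-deficient controls. The lowest, median and highest WT UUO kidneys measured 7.23, 7.41 and 11.15, and the IL-33-deficient UUO kidneys measured 7.52, 7.32, 7.50, 7.36 and 7.54. WT kidney 3820 (11.15) came nearest to the controls but was below every one of them, while most others were near the array median. The difference was -4.15 ± 0.76 (SE) in WT kidneys (limma, adjusted p = 0.0021) and -4.86 ± 0.79 in IL-33-deficient kidneys (limma, adjusted p = 4.46e-04). Without kidneys 3818 and 3820, which had the most EGF of the UUO kidneys, the WT difference was -4.91 ± 0.16 (limma, adjusted p = 2.00e-10).

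Genes of basolateral salt exit were among those that fell. BSND, the barttin subunit needed for chloride exit, had differences of -1.86 and -1.82 in WT and IL-33-deficient kidneys (limma, adjusted p = 0.0045 and 0.0036). Without kidneys 3818 and 3820 the WT difference of BSND was -2.20 (limma, adjusted p = 2.54e-07). FXYD2, a subunit of the sodium pump, fell in both genotypes and ATP1B1, another, was called in WT kidneys, and these, like the other genes named by symbol alone in this paragraph, were named after their values were seen. KCNJ16, a basolateral potassium channel subunit, fell in both. Of 4 claudins, the proteins that set the permeability between cells, CLDN10 fell (-1.22 and -1.41, limma, adjusted p = 0.0011 and 1.93e-04), and CLDN14, CLDN16 and CLDN19 were not called. Of 6 measured genes of the WNK-SPAK kinase pathway, which activates SLC12A1 and SLC12A3 by phosphorylation, WNK1 and WNK4 fell in both genotypes and STK39 in IL-33-deficient kidneys. Of 6 genes of calcium handling, the parathyroid hormone receptor PTHR1 fell in both, the vitamin D receptor VDR fell by 0.99 and 1.28 on the log2 scale (limma, adjusted p = 0.012 and 0.0018), and the calcium pump ATP2B1 rose by 0.44 in IL-33-deficient kidneys (limma, adjusted p = 0.015). CNNM2 of magnesium handling and the prostaglandin receptor PTGER3 fell in WT kidneys. No difference between the genotypes' responses was called for any of the 29. Fewer of the 29 were called where fewer kidneys entered the fit, with 1 in WT and 8 in IL-33-deficient kidneys with set 1 alone. Fewer were also called without control 3811, 3812 or 3813, which leaves 1 control of that genotype. The share of all genes called was not counted in these settings.

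**Figure D4:**
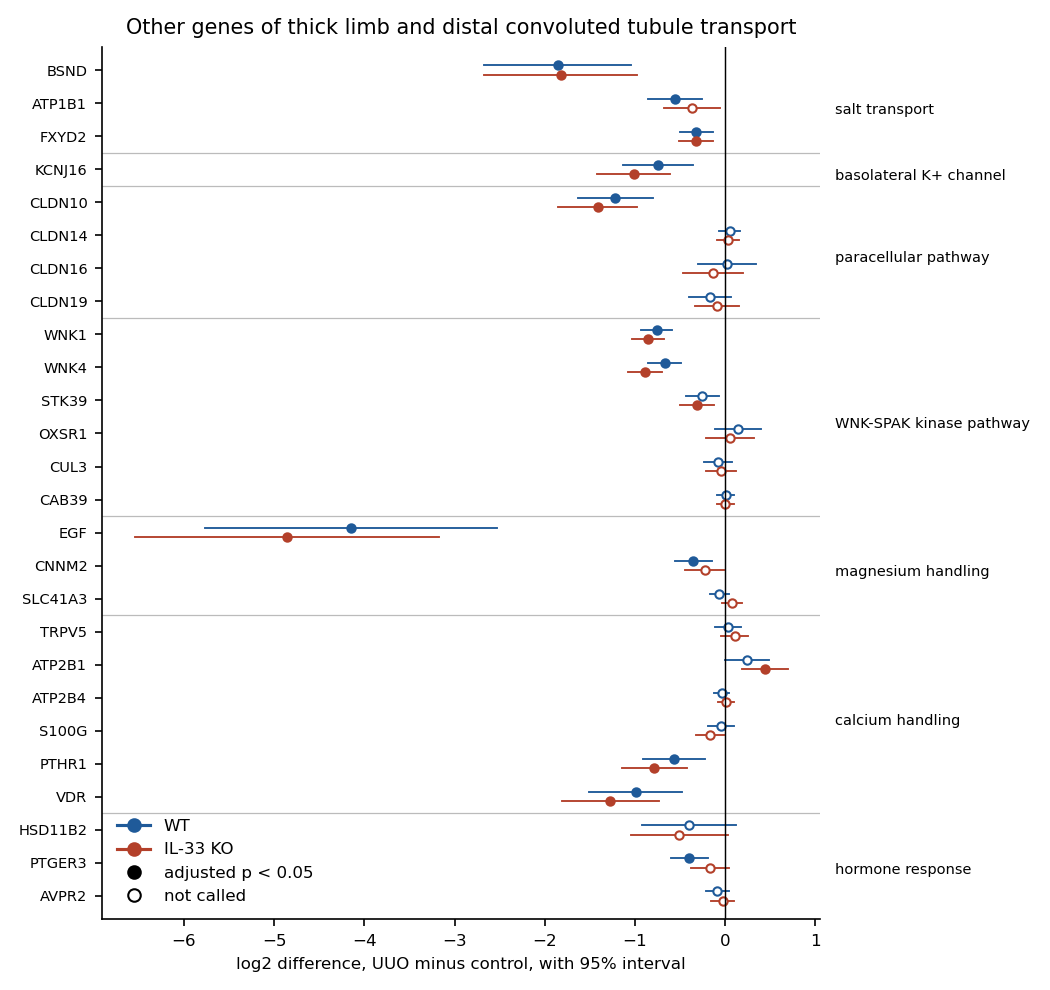
Log2 difference between UUO and control kidneys (horizontal axis) for 26 of the 29 other genes of transport in these segments, grouped by role, in WT (blue) and IL-33-deficient (red) kidneys. Bars are 95% intervals from limma and filled points passed an adjusted p under 0.05, with EGF farthest to the left at -4.15 and -4.86.

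Other segments and cell types moved as well in these homogenates. None of 7 measured proximal tubule markers was called in WT kidneys and 6 were lower in IL-33-deficient kidneys, beside 8.22% and 11.2% of all genes lower, with medians of -0.66 and -1.27. All 7 differences were below 0 in both genotypes, and the difference of the responses was called for none of the 7. Without WT kidneys 3818 and 3820, 5 of the 7 were called lower in WT kidneys, with a median of -0.83, where 11.6% of all genes were lower. In IL-33-deficient kidneys the differences ran from -1.89 (SLC13A3) to -0.20 (LRP2). The mean of the 7 was between 9.75 and 11.05 in WT and between 9.37 and 10.02 in IL-33-deficient UUO kidneys. Of 10 collecting duct markers 4 fell in each genotype, and 6 in WT kidneys without kidneys 3818 and 3820, with the lowest difference at SLC4A1 (-2.17 and -2.57). Of 9 measured tubular injury genes 8 rose in each genotype, and their mean went from between 8.14 and 8.24 in the controls to between 9.82 and 10.82 after UUO. Of 6 fibroblast markers 3 rose in WT and 4 in IL-33-deficient kidneys, and of 8 leukocyte markers 2 and 3 rose. Among all genes 6.97% were higher in WT and 10.6% in IL-33-deficient kidneys. Of 5 endothelial markers none was called in WT and 1 fell in IL-33-deficient kidneys. The 3 erythroid markers, a sign of blood left in the tissue, were not called, but without kidneys 3818 and 3820 all 3 were lower in WT kidneys, with a median of -1.22, and 2 in IL-33-deficient kidneys, and their mean was between 8.93 and 11.25 in the WT UUO kidneys. The part of these shifts in the values of the 9 genes was not tested.

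The second question was whether loss of IL-33 altered these genes. No difference between the genotypes' responses was called for any of the 9, with 0% of all genes called by limma. With every kidney in the fit 860 of 18132 genes had an unadjusted p under 0.05, none of them a member. IL33 itself, the deleted gene, was not called either (-1.41, limma, adjusted p = 0.90). A missing call in this comparison therefore does not show that the responses were equal. The difference of the responses, IL-33-deficient minus WT, was between -0.29 (SLC8A1) and 0.28 (SLC12A3). For SLC12A1 it was -0.01, with a 95% interval from -1.89 to 1.88, so a difference of several fold could not have been seen. For PVALB it was -0.12, with an interval from -0.61 to 0.37.

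After UUO no member passed the study's threshold between IL-33-deficient and WT kidneys (a fold change above 1.3 with p under 0.05 before and under 0.25 after adjustment), nor an unadjusted p under 0.05 in limma. 2 of all 18132 genes, 0.0110%, passed the threshold, and 1874 had an unadjusted p under 0.05. The deleted gene IL33 was 1 of the 2 (-2.36, limma, adjusted p = 9.55e-05). At these cut-offs the paper compared fewer WT kidneys and counted probes, of which it listed many more, so the counts are not alike. UMOD differed by 0.04 (95% interval -0.38 to 0.46), PVALB by 0.01 (-0.26 to 0.28), SLC8A1 by 0.06 (-0.25 to 0.37) and SLC12A3 by 0.16 (-0.08 to 0.41). SLC12A1 differed by -0.26, with an interval from -1.30 to 0.77. The exact two-sided permutation p over 792 splits was between 0.088 (CALB1) and 0.99 (PVALB). Within the sets SLC12A1 was -1.0 in set 1 and 0.30 in set 2, UMOD -0.13 and 0.17, PVALB -0.22 and 0.17 and SLC12A3 0.05 and 0.27, and none was called. Without WT kidneys 3818 and 3820 SLC12A1 was 0.35 (limma, adjusted p = 0.59).

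**Figure D5:**
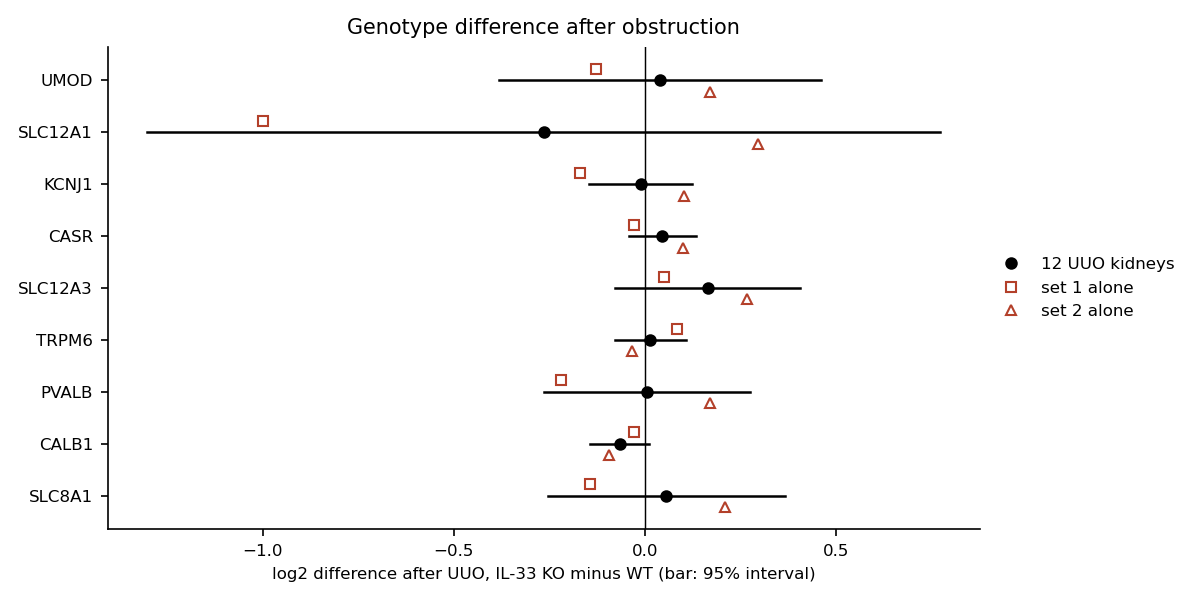
Log2 difference between IL-33-deficient and WT kidneys after UUO (horizontal axis) for the 9 genes. Black points and 95% bars come from the 12 UUO kidneys, open squares from set 1 alone and open triangles from set 2 alone, and the bar of every gene crosses 0, with the squares and triangles of SLC12A1 on opposite sides at -1.0 and 0.30.

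In the control kidneys no member was called between the genotypes, as was 0% of all genes by limma, with 664 at an unadjusted p under 0.05. IL33 itself was not called there, at -0.95, so a missing call does not show equal levels. The differences, IL-33-deficient minus WT, were between -0.26 (SLC12A1) and 0.34 (SLC8A1), and SLC8A1 was higher in both IL-33-deficient controls (10.14 and 10.02) than in both WT controls (9.81 and 9.66). With 2 kidneys against 2, the smallest exact two-sided permutation p is 0.33.

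The genes whose levels most resembled those of the 3 segment markers over the 16 kidneys were sought among all genes, as a description that treatment and kidney 3820 both shape. For SLC12A1 they were WFDC15B (Pearson r = 0.993), PPP1R1A (0.992) and SMARCA2 (0.988), and over the 10 UUO kidneys without 3818 and 3820 their r was 0.96, 0.89 and 0.76. For UMOD they were AU042651 (0.92), SULT1C2 (0.92) and CD59A (0.90), and for SLC12A3 LOC675228 (0.94), ADD3 (0.92) and RAB27A (0.92). The WT differences of the genes most like UMOD were -0.27, -0.62 and -0.47, and that of WFDC15B was -3.32.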

How the data were processed

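Total RNA of kidney homogenates was labelled with biotin and hybridized to the arrays, which the authors imported with the beadarray package. The submitters' processing notes name BeadStudio 2. The authors deposited linear intensities, 1 row per gene for 18132 genes and 16 arrays, with array medians between 132 and 133 and a range from 95.5 to 23471. Background correction, normalization and the joining of bead types to a gene are not given in the sources used here, and no detection p-values were used. The number of arrays limits the precision. No pair of arrays held identical values for the genes listed.

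The deposited intensities were quantile-normalized and taken to log2. Groups came from the sample labels. With R 4.3.3 and its package limma 3.58.1, linear models with moderated variances were fitted to 4 groups of 16 arrays for the responses to UUO, their difference between genotypes and the control kidneys (adjusted p under 0.05), and to the 12 UUO arrays for genotype after UUO, where the methods' threshold was used. p-values were adjusted over all genes by Benjamini and Hochberg. They set each difference against the spread between these kidneys within groups, pooled over the groups of the fit. Exact two-sided permutation tests were run for single genes. The methods were tested on simulated data. Motifs and plots were made with Python 3.11.15, pandas 2.3.3 and matplotlib 3.10.9.

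The 9 genes and the other lists were chosen with earlier results of these data known. The rule for naming genes took the 9, IL33, HAVCR1, LCN2 and companion genes called in a response (at most the 5 lowest falls and 3 rises in each). It also took the lowest and highest genes of the other lists and the 3 genes most like UMOD, SLC12A1 and SLC12A3. Further companion genes outside this rule were named after their values were seen, among them CLDN14, CLDN16 and CLDN19, which were not called. Some genes of these lists are not reported here and enter only the counts. Alternatives were no second normalization, median centring, subtraction of the lowest intensity, the brighter genes alone, array weights, a prior variance that follows brightness, each array left out, each set alone, the set as a block, other thresholds and 1 model for all groups.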

Additional observations from a re-analysis of the deposited data

Results flagged for a closer look

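A search for a kidney far from the rest covered 36 groups of values, each of 1 gene in 1 group of at least 4 kidneys. In it 5 values stood out. Chance gives about 1 in 20 independent groups, but these overlap, since the WT kidneys of set 2 are also among all WT UUO kidneys. PVALB in WT UUO kidney 3820 was 7.74, with the other 6 between 6.89 and 7.11. HAVCR1 in the same kidney was 10.42, with the others between 12.84 and 13.95. IL33 in WT UUO kidney 3818 was 8.39, with the others between 9.10 and 9.57, and IL33 in WT UUO kidney 3893 was 9.33, with the other 3 of set 2 between 9.44 and 9.46. LCN2 in IL-33-deficient UUO kidney 3899 was 12.97, with the others between 13.50 and 13.70.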

How the results depend on the processing

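PVALB and SLC8A1 were called lower in both genotypes, and SLC12A1 and KCNJ1 lower in IL-33-deficient kidneys, under every alternative run. The number of the 9 genes called in WT kidneys (6) was 2 with set 1 alone and between 3 and 7 with 1 array left out, and that of the 29 companion genes (14) was 1 and between 4 and 15. In IL-33-deficient kidneys the 14 companion genes became 8 with set 1 alone and between 9 and 15 with 1 array left out. In these cases fewer kidneys entered the fit, and the share of all genes called was not counted. None of the KO minus WT differences was called under any alternative, and several changed sign. With the lowest intensity subtracted the difference of the responses at SLC12A1 was 0.0062. With array weights it was 0.30, and after UUO SLC12A1 was 0.026 and KCNJ1 0.026. With set 1 alone the difference of the responses was -0.74 at SLC12A1 and -0.075 at KCNJ1, SLC12A1 after UUO was -1.0, the WT response of CALB1 was -0.0026, and UMOD after UUO was -0.13, CASR -0.029, PVALB -0.22 and SLC8A1 -0.14. With set 2 alone the difference of the responses was 0.55 at SLC12A1 and 0.041 at PVALB, and after UUO SLC12A1 was 0.30, KCNJ1 0.10 and TRPM6 -0.033. Without WT kidneys 3818 and 3820, chosen after seeing the data, these were 0.61 at SLC12A1 and 0.010 at PVALB for the responses, and 0.35 at SLC12A1 and 0.058 at KCNJ1 after UUO. Without both, the difference of the responses at SLC12A3 was 0.41 ± 0.14 (SE, limma, unadjusted p = 0.00995, adjusted p = 0.78). No other member had an unadjusted p under 0.05 there. The SLC12A3 difference was between 0.17 and 0.41 over 9 alternatives and between 0.21 and 0.36 with 1 array left out. CALB1, CASR, SLC8A1, TRPM6 and UMOD also kept the sign of this difference throughout. With 1 array left out the difference of the responses ranged from -0.15 to 0.31 at KCNJ1 and from -0.23 to 0.34 at SLC12A1. After UUO the range was -0.034 to 0.019 at KCNJ1, -0.029 to 0.11 at PVALB, -0.44 to 0.082 at SLC12A1, -0.0036 to 0.13 at SLC8A1, -0.022 to 0.039 at TRPM6 and -0.053 to 0.16 at UMOD. In the controls it was -0.014 to 0.064 at CALB1, -0.10 to 0.033 at CASR, -0.32 to 0.13 at KCNJ1 and -0.10 to 0.0056 at TRPM6, and the WT response of CALB1 ranged from -0.0071 to 0.064. The cause of these changes was not tested. No paired analysis was possible because the kidney numbers are not shared between groups. Signal near background limits CASR, TRPM6, KCNJ1, CALB1 and the obstructed values of PVALB, whose folds are understated.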
